A study of Mus musculus with 30 samples.

Results

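The 8 genes described here encode receptor chains for the growth factors of myeloid cells: Flt3, Csf1r and Kit, and Csf2ra, Csf2rb, Csf2rb2, Csf3r and Il3ra. They were picked by symbol, by a rule that uses no measured value, although the list was drawn up with earlier results of these data known. All 8 were found among the 32285 genes of the count tables. They were followed in spleen cells depleted of red blood cells from mice labelled Smc3-cKO and from mice labelled Smc3-WT, with 2 single-cell RNA libraries per genotype. Smc3 encodes a core subunit of cohesin, the ring complex that shapes chromatin loops, and the labels name neither the Cre line nor the deleted part of the gene. The study also profiled sorted dendritic cells and their precursors by bulk RNA-seq, ChIP-seq and Hi-C, and those 26 of the 30 samples were not analysed here.

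Flt3, Csf1r and Kit are receptor tyrosine kinases. Flt3 binds Flt3 ligand, the main growth factor of dendritic cells (DCs), Csf1r binds M-CSF and IL-34 and sustains monocytes and macrophages, and Kit binds stem cell factor and acts in stem cells, mast cells and early progenitors. Csf2ra is the alpha chain that binds GM-CSF, Il3ra is the alpha chain that binds IL-3, and both signal with the common beta chain Csf2rb. The mouse has a second beta chain, Csf2rb2, which works with the IL-3 receptor alone. Csf3r is the G-CSF receptor of the neutrophil lineage. The cytokine receptor chains signal through JAK2 and STAT5 or STAT3, and PU.1, the transcription factor studied in this series together with cohesin, is known to drive several of these genes in myeloid cells.

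On the GRCm38.p6 assembly, the same build as mm10, Csf3r lies at chr4:126023441-126044975, Kit at chr5:75574987-75656722, Flt3 at chr5:147330741-147400489, Il3ra at chr14:14345912-14355493 and Csf2ra at chr19:61217191-61228461. The beta chain genes are neighbours on chromosome 15, Csf2rb2 at chr15:78282507-78305721 and Csf2rb at chr15:78325800-78351001, with 20078 bases between them. Their sequences are near-identical in part, so the split of counts between Csf2rb and Csf2rb2 is uncertain.

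The bases before the starts of Kit, Csf2rb2 and Flt3 are shown. Among the receptors looked up, which left out Csf1r, these are the 3 whose window in the table lies outside the gene itself. All 3 are compared between DC classes and genotypes below. Each line gives the 250 bases before the gene's start from RefSeq on GRCm38.p6, read 5′ to 3′ on the gene's strand, with capitals marking each GAGGAA, the core of a PU.1 site, or its complement TTCCTC. The windows are chr5:75574737-75574986 on the plus strand for Kit, chr15:78305722-78305971 on the minus strand for Csf2rb2 and chr5:147400490-147400739 on the minus strand for Flt3.
Kit: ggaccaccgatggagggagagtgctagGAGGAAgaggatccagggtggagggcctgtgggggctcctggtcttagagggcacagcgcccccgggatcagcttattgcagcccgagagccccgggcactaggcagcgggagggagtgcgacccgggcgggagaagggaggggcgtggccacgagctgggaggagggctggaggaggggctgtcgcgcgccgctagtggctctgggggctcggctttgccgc
Csf2rb2: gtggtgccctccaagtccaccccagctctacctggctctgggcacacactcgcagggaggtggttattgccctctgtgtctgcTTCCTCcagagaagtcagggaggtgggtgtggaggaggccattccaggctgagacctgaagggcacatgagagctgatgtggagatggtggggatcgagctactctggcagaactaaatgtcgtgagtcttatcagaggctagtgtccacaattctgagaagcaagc
Flt3: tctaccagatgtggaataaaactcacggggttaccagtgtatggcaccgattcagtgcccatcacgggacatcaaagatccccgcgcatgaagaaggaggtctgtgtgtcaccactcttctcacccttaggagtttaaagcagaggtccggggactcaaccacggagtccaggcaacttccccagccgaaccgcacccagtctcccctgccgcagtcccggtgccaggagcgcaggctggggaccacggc
Kit has 1 match, which begins 223 bases before the start, and Csf2rb2 has 1, which begins 167 bases before the start. The Flt3 window holds neither string. Of 32851 windows of this length in the table, 7639 hold the motif on either strand, or 23.3%. A match describes these letters and does not show binding.

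The 4 libraries held 53644 barcodes and 187314726 UMIs, with 40367056 to 51299056 UMIs per library. After filters and removal of called doublets, 44793 cells were grouped in 47 clusters, of which 35 were named from marker lists and 12, with 6.10% of the cells, stayed unnamed. Levels are in CPM, the UMIs of a gene summed over the cells of one class in one library and scaled by the UMI total of those cells. Each UMI is a 3′ tag, so a level is not per length and levels are compared between classes for one gene, never between genes. Each of the 9 myeloid classes described had most of its defining markers, from 8 of 13 at 20 CPM or more in every library for cDC2-like cells to all 14 for plasmacytoid DC (pDC)-like cells, while erythroid-like cells had 4 of 10. Smc3-WT replicate 1 stood apart: 0.859% of its cells were called doublets, against 3.61% to 6.37% in the other libraries. It also had the most erythroid-like cells, 7.36% of its cells. Library pairs shared 36 to 61 barcodes, at most 0.432% of the smaller library. Smc3 itself had 88.3 and 94.7 CPM in the cDC2-like cells of the Smc3-cKO libraries, against 84.7 and 91.9 CPM in those of the Smc3-WT libraries. Other classes differed: cDC1-like cells had 146 and 216 CPM in Smc3-cKO, against 95.2 and 109 CPM in Smc3-WT. Neutrophil-like cells had 76.2 and 77.6 CPM in Smc3-cKO, against 103 and 158 CPM in Smc3-WT. A 3′ tag can lie outside the deleted part, so these levels neither check the labels nor speak of the protein.

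The receptors divided the myeloid classes by lineage. Flt3 marked the DCs, Csf1r the macrophages and monocytes, Csf3r the neutrophils, Csf2rb the basophils, and Csf2rb2 the basophils and pDCs. Il3ra was too scarce to place. Kit, by contrast, was found in conventional DCs (cDCs). Classes come from clusters of the same cells, although the 8 receptors were kept out of the clustering genes and marker lists, so these levels are a description with no test. Background from free RNA was gauged from T-like cells, in which the highest level in any library was 19.3 CPM for Csf1r and 5.7 CPM or less for each of the other 7 receptors. This is no upper limit. In Smc3-WT replicate 1 Csf1r had 23.0 CPM in NK-like and innate lymphoid-like and 21.8 CPM in erythroid-like cells. In megakaryocyte-like or platelet-like cells of that library it had 191 CPM, from 6 UMIs.

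**Figure D1:**
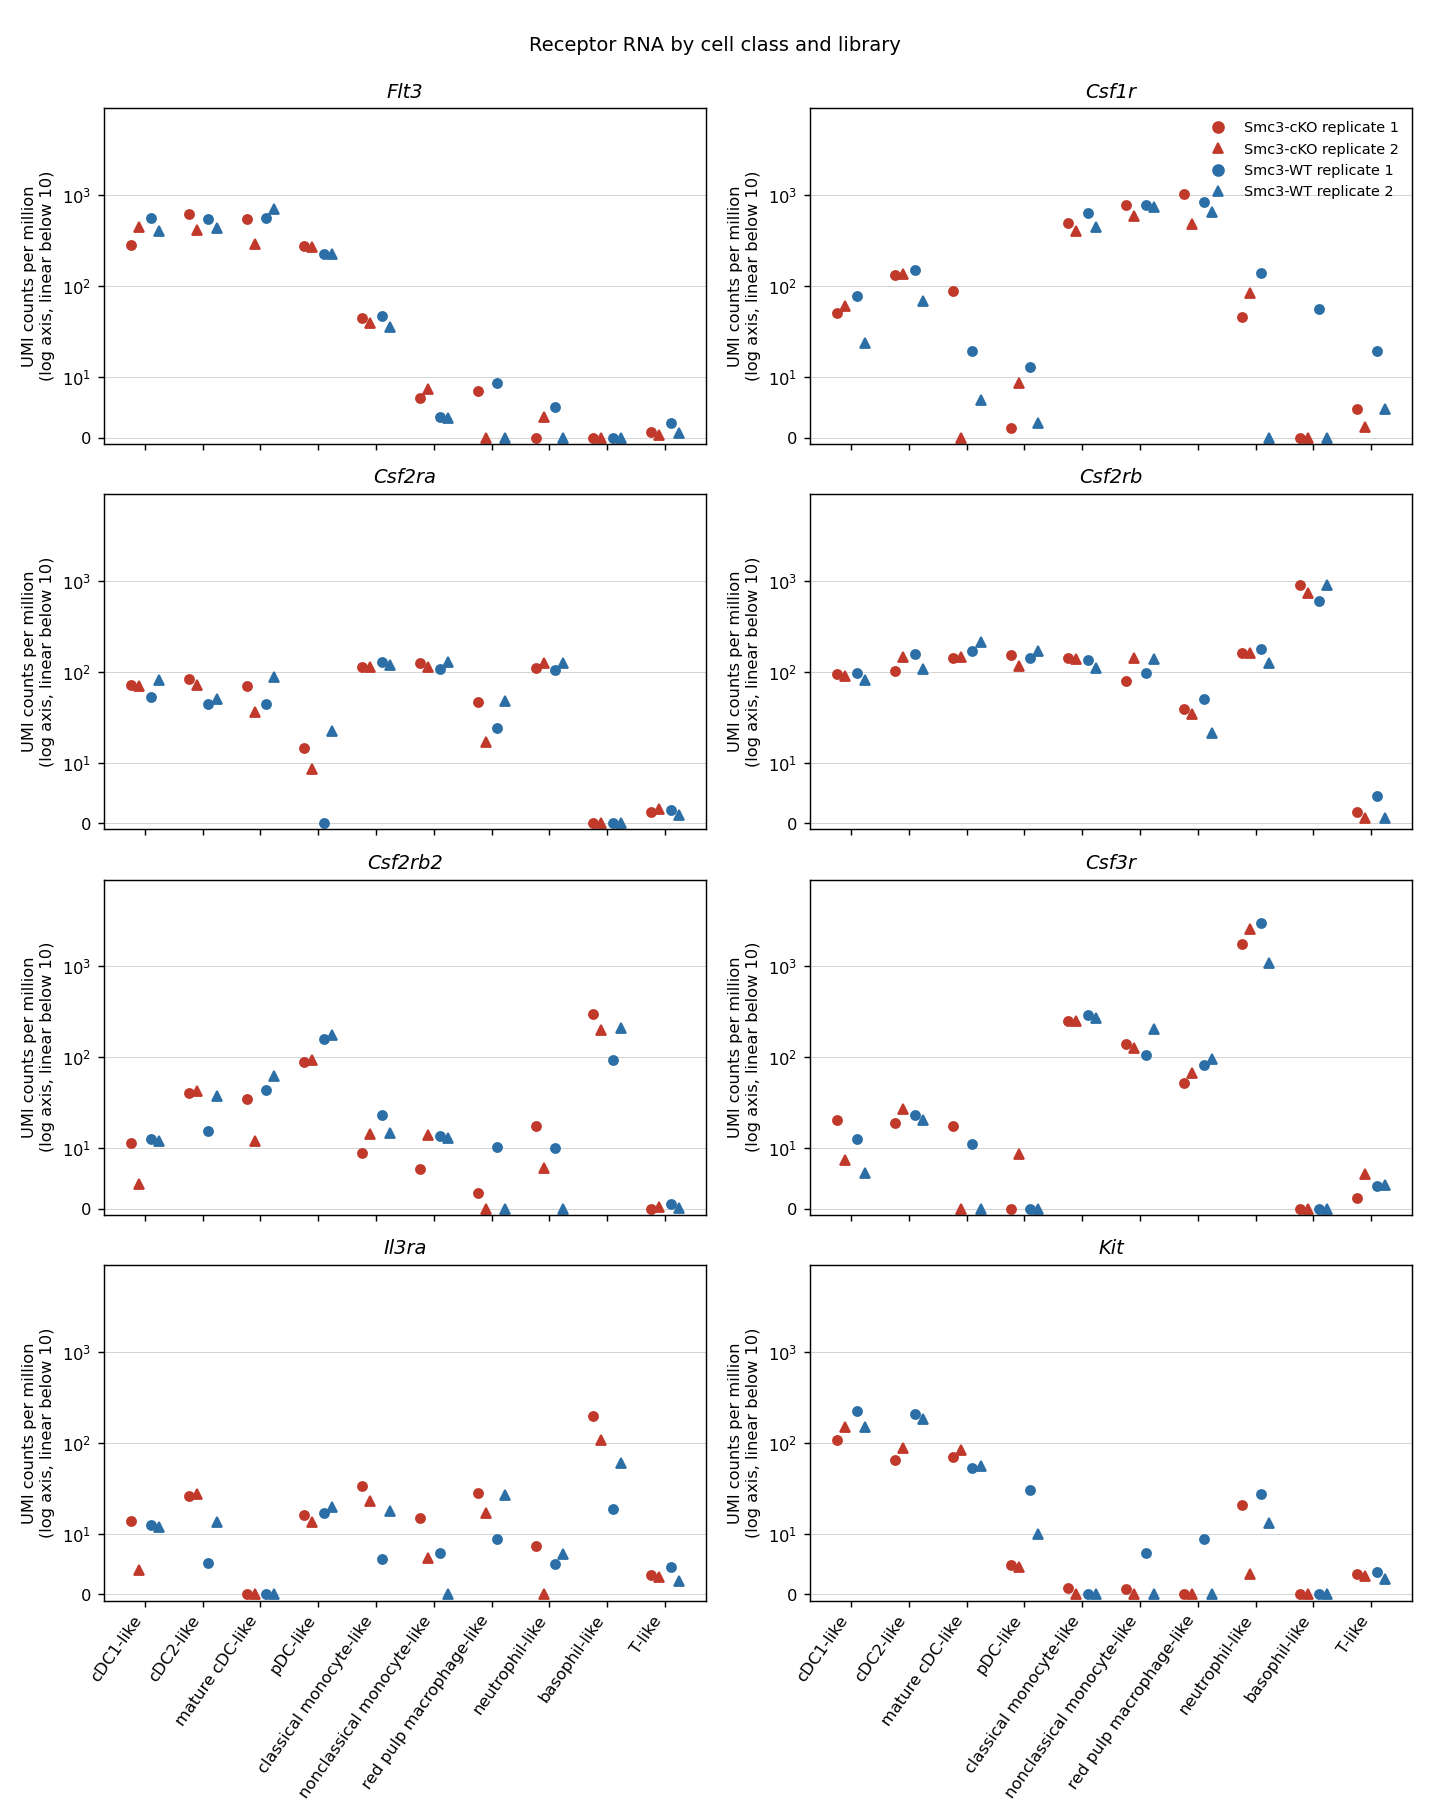
Levels of the 8 receptors by cell class. Each panel is 1 gene, each point 1 library, the vertical axis is CPM (linear below 10 and logarithmic above), and classes run along the horizontal axis with T-like cells as background. Csf3r in neutrophil-like cells lies between 1095 and 3005 CPM in the 4 libraries, above every library of the other classes, while Flt3 in the 3 cDC classes lies between 283 and 698 CPM.

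Flt3 averaged 521 ± 171 CPM in mature cDC-like cells, 501 ± 95.6 CPM in cDC2-like cells and 422 ± 114 CPM in cDC1-like cells (SD, n = 4 libraries), and the ranges of these 3 classes overlapped. pDC-like cells had 248 ± 27.6 CPM, with no library as high as the lowest cDC1-like one at 283 CPM. Classical monocyte-like cells had 41.6 ± 5.3 CPM, again below every pDC-like library. Of cDC2-like cells 75.8% had a Flt3 UMI, against 0.3% of T-like cells, whose median depth was 2826.5 to 4237 UMIs against 4061 to 6383 UMIs for cDC2-like cells. In basophil-like cells no Flt3 UMI was counted among 56 cells, which allows a share of up to 5.36% with a UMI.

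Csf1r was present in red pulp macrophage-like cells at 744 ± 231 CPM, in nonclassical monocyte-like cells at 719 ± 86.3 CPM and in classical monocyte-like cells at 495 ± 100 CPM, and neighbours in this order overlapped. The gene lies at chr18:61105572-61131139 (GRCm38.p6). Next came cDC2-like cells with 122 ± 35.8 CPM, below every classical monocyte-like library. In cDC2-like cells Csf1r had 134 and 135 CPM in the Smc3-cKO libraries, against 149 and 69.0 CPM in the Smc3-WT libraries, so the genotypes overlapped. cDC1-like cells had 53.2 ± 22.6 CPM, above the T-like level of 19.3 CPM in every library, though only 23.8 CPM in the lowest. pDC-like cells had 6.5 ± 5.4 CPM, within that level. Mature cDC-like cells had 88.0 and 0.0 CPM in Smc3-cKO, against 19.3 and 6.2 CPM in Smc3-WT. In cells gated on markers instead of clusters, Csf1r in cDC1 was 10.4 and 8.6 CPM in Smc3-cKO, against 24.98 and 5.5 CPM in Smc3-WT, so only 1 library was above 19.3 CPM, while gated cDC2 had 121 CPM or more in every library. By both definitions and in every library, cDC2 was the one DC class of the 4 above that background. The 2 definitions shared only 124 cells, of 483 cDC2-like cells by cluster and 171 by gate.

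Csf2ra, the GM-CSF receptor alpha chain, had nearly one level in 3 classes: 118 ± 7.5 CPM in classical monocyte-like, 118 ± 10.4 CPM in nonclassical monocyte-like and 116 ± 10.2 CPM in neutrophil-like cells. The cDC1-like cells had 68.5 ± 11.9 CPM and the cDC2-like cells 62.0 ± 18.4 CPM, and their ranges overlapped but lay below those of the first 3 classes. In pDC-like cells Csf2ra was 14.6 and 9.0 CPM in the Smc3-cKO libraries, against 0.0 and 22.3 CPM in the Smc3-WT libraries. The alpha chain was counted 0 times among the 56 basophil-like cells, with the same upper limit of 5.36%.

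The shared beta chain Csf2rb was broader. It stood highest in basophil-like cells, at 896 and 740 CPM in the Smc3-cKO libraries, against 601 and 903 CPM in the Smc3-WT libraries, clear of every other class. Basophil-like cells numbered only 5 and 19 in the Smc3-cKO libraries, and 19 and 13 in the Smc3-WT libraries, too few for a test by genotype. Mature cDC-like (166 ± 33.0 CPM), neutrophil-like (156 ± 22.3 CPM), pDC-like (145 ± 22.6 CPM), classical monocyte-like (131 ± 15.2 CPM) and cDC2-like cells (128 ± 27.3 CPM) formed an overlapping run. cDC1-like cells had 90.5 ± 6.9 CPM, and red pulp macrophage-like cells 36.0 ± 11.8 CPM. In T-like cells Csf2rb was at 4.4 CPM or less.

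Csf2rb2, the IL-3-specific beta chain, was narrower: 200 ± 83.8 CPM in basophil-like cells and 129 ± 44.2 CPM in pDC-like cells, 2 ranges that overlapped. Every pDC-like library was above every mature cDC-like one (38.4 ± 21.0 CPM) and every cDC2-like one (34.1 ± 12.6 CPM). Of the UMIs assigned to either beta chain gene, Csf2rb2 took 45.3% in pDC-like cells (184 of 406, 95% Clopper-Pearson interval 40.4% to 50.3%). In cDC2-like cells it took 22.1% (90 of 407, 18.2% to 26.5%), in basophil-like cells 18.8% (26 of 138, 12.7% to 26.4%) and in cDC1-like cells 10.6% (17 of 160, 6.31% to 16.5%). Classical monocyte-like cells had 8.91% (31 of 348, 6.13% to 12.4%) and neutrophil-like cells 6.67% (17 of 255, 3.93% to 10.5%). The pDC share was 36.9% and 44.7% in the Smc3-cKO libraries, against 52.9% and 50.7% in the Smc3-WT libraries, and every one of these lay above the cDC2-like shares of 8.96% to 28.3%. These intervals, and the limits given for counts of 0, cover counting error only.

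**Figure D2:**
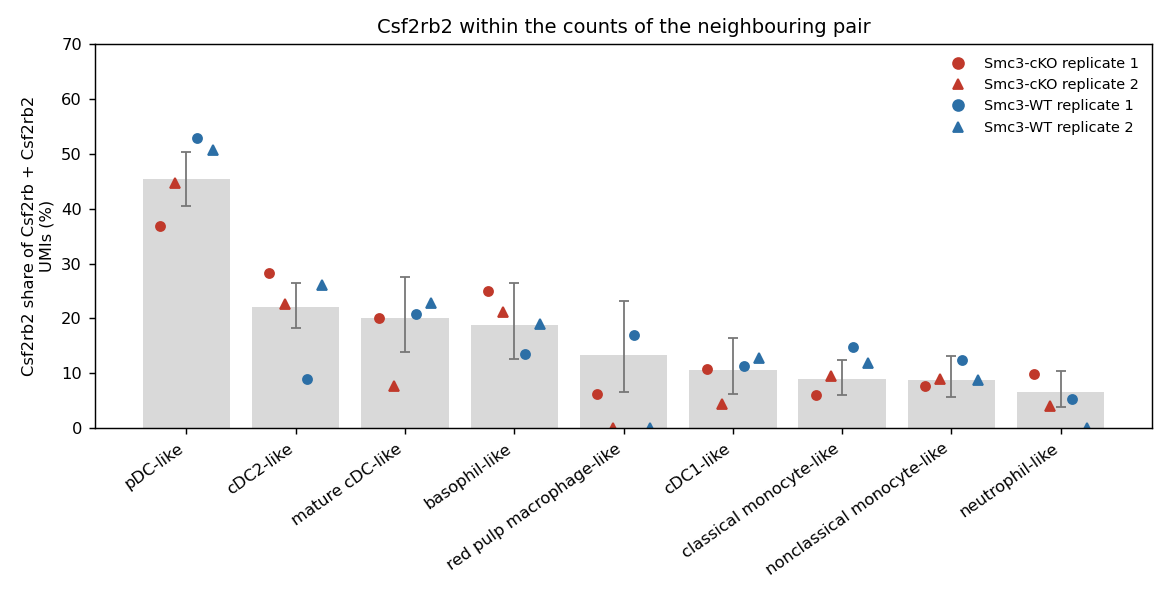
Csf2rb2 as a percentage of the UMIs of Csf2rb and Csf2rb2 together, by class. Grey bars are the share pooled over 4 libraries with the 95% Clopper-Pearson interval and points are single libraries. The pDC-like bar stands at 45.3% and the neutrophil-like bar at 6.67%.

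Il3ra was scarce everywhere, with 702 UMIs over all cells, and its order is uncertain at this depth. Basophil-like cells had 199 and 108 CPM in the Smc3-cKO libraries, against 18.8 and 60.2 CPM in the Smc3-WT libraries, from 11 UMIs in all. Red pulp macrophage-like cells averaged 20.3 ± 9.0 CPM, classical monocyte-like cells 19.9 ± 11.5 CPM, cDC2-like cells 18.0 ± 10.6 CPM and pDC-like cells 16.7 ± 2.6 CPM, and all of these overlapped. T-like cells stayed at 4.6 CPM or less. No Il3ra UMI was counted in 158 mature cDC-like cells, which allows a share of up to 1.90%.

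Csf3r was concentrated in neutrophil-like cells, which were 1.15% of all cells and held 57.7% of its 5624 UMIs. Their level was 1779 and 2583 CPM in the Smc3-cKO libraries, against 3005 and 1095 CPM in the Smc3-WT libraries. Below them came classical monocyte-like cells (265 ± 20.2 CPM), nonclassical monocyte-like cells (144 ± 43.1 CPM) and red pulp macrophage-like cells (74.4 ± 19.0 CPM), with no overlap between these steps. cDC2-like cells had 22.4 ± 3.6 CPM, and pDC-like cells had 2 UMIs.

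The neutrophil-like class was made up of 2 clusters that differed in Csf3r. One was led by S100a9, S100a8 and Retnlg, and the other by Ngp, Camp and Ltf, granule genes of earlier neutrophils. S100a8 and S100a9 were also among the leading genes of the Ngp-led cluster. Csf3r had 5859 and 4092 CPM in the S100a9-led cluster of the Smc3-cKO libraries, against 4627 and 4946 CPM in that of the Smc3-WT libraries. In the Ngp-led cluster it had 282 and 208 CPM in Smc3-cKO, against 225 and 172 CPM in Smc3-WT. The clusters did not overlap, and their means were 4881 ± 741 and 222 ± 46.0 CPM (SD, n = 4). Median depth was 1441 UMIs per cell in the S100a9-led and 6116.5 UMIs in the Ngp-led cluster. A level in CPM is a share of UMIs, so it does not give the count per cell. The S100a9-led cluster made up 63.3% and 83.9% of neutrophil-like cells in the Smc3-cKO libraries, against 85.5% and 62.0% in the Smc3-WT libraries, and the class level of Csf3r was higher in the 2 libraries with the larger share. Csf1r averaged 122 ± 84.3 CPM in the S100a9-led cluster, against 0.0 to 47.8 CPM in the libraries of the Ngp-led cluster. The whole class had 0 CPM of Csf1r in Smc3-WT replicate 2, so the clusters overlapped in this gene. The GM-CSF receptor alpha chain Csf2ra had 107 CPM on average in each cluster. Csf2rb had 204 ± 34.3 CPM in the S100a9-led and 133 ± 54.9 CPM in the Ngp-led cluster, with overlapping ranges.

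**Figure D3:**
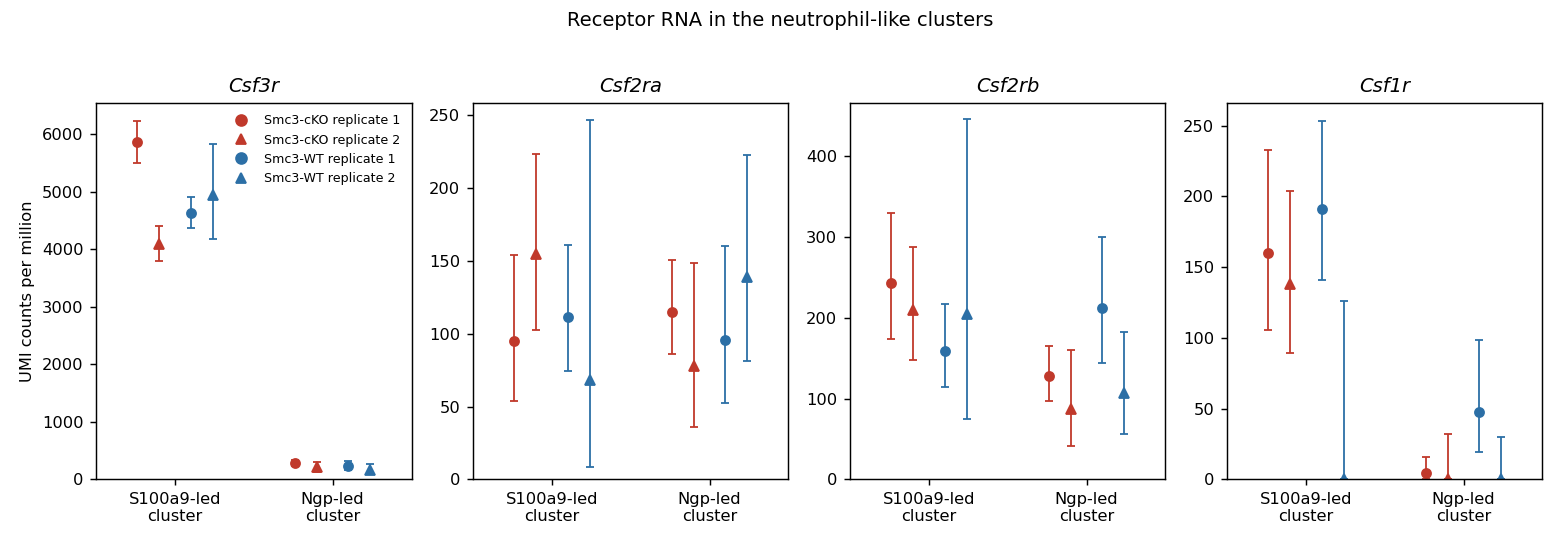
Levels of Csf3r, Csf2ra, Csf2rb and Csf1r in the S100a9-led and Ngp-led neutrophil-like clusters. The vertical axis is CPM, points are libraries and bars are 95% exact Poisson intervals of the counts. Csf3r is at 4092 to 5859 CPM in the first cluster and 172 to 282 CPM in the second.

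Kit, the stem cell factor receptor, had 157 ± 48.1 CPM in cDC1-like, 136 ± 70.7 CPM in cDC2-like and 65.6 ± 14.3 CPM in mature cDC-like cells, and neighbouring ranges overlapped. Of cDC1-like cells 51.5% had a Kit UMI and of cDC2-like cells 36.2%, against 0.7% of T-like cells. These shares depend on depth, which was a median of 5743.5 to 10720 UMIs in cDC1-like and 4061 to 6383 UMIs in cDC2-like cells. With cells thinned to 1000 UMIs the shares were 10% of cDC1-like, 12.3% of cDC2-like and 0.26% of T-like cells. Monocyte-like and red pulp macrophage-like cells averaged 2.3 CPM or less, within the T-like background of up to 3.7 CPM, and basophil-like cells had no Kit UMI, which allows a share of up to 5.36%. Among the 53 basophils gated on markers, 49 of them shared with the cluster, Kit had 90.7 and 248 CPM in Smc3-cKO, against 0.0 and 0.0 CPM in Smc3-WT, so the count of 0 holds for the cluster only. Outside the myeloid classes Kit was in erythroid-like cells at 98.2 and 402 CPM in the Smc3-cKO libraries, against 24.4 and 250 CPM in the Smc3-WT libraries.

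No receptor passed the test between genotypes in any class. Raw counts summed per library were compared by the quasi-likelihood test of edgeR, and p-values were adjusted over all genes of a class by the Benjamini-Hochberg method, with a threshold of 0.05. In 8 classes 42 effects could be tested, 22 higher and 20 lower in Smc3-cKO, with log2 changes between -1.36 and 1.33. Across all genes the percentage called in cDC2-like cells was 0.836 (61 of 7301), made up of 0.726 lower and 0.11 higher in Smc3-cKO. In all cDC-like cells together it was 0.171 (0.139 lower and 0.0321 higher), in cDC1-like cells 0.0765 (all lower) and in red pulp macrophage-like cells 0.06 (all higher). It was 0 in pDC-like, both kinds of monocyte-like and neutrophil-like cells. At an unadjusted p under 0.05, 2 of 8 receptors were counted in cDC2-like cells, where 9.79 percent of all genes were, 1 of 8 in all cDC-like cells (9.64 percent of all genes) and 1 of 3 in pDC-like cells (3.23 percent). None was counted in cDC1-like (4.33 percent), classical monocyte-like (3.84 percent), nonclassical monocyte-like (2.77 percent), red pulp macrophage-like (3.58 percent) or neutrophil-like cells (3.23 percent). DESeq2 also called 0 of the 42. Nothing in the labels says that the libraries are of separate animals, so the p-values measure library-to-library spread alone, and that spread may be technical.

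The difference that came nearest the threshold was Kit in cDC2-like cells. Kit had 64.4 and 88.2 CPM in the Smc3-cKO libraries, against 211 and 181 CPM in the Smc3-WT libraries. Both Smc3-cKO libraries were below both Smc3-WT libraries. The log2 change was -1.36 ± 0.28 (SE), with an adjusted p of 0.0651 in edgeR's test. Without Smc3-WT replicate 1 it was -1.28 with an adjusted p of 0.179. Without Smc3-WT replicate 2 it was -1.41 with an adjusted p of 0.0260, where the lone Smc3-WT library is assumed to vary like the Smc3-cKO ones. Without a filter on low counts the adjusted p was 0.00849, and with equal numbers of cells per library it was 0.0111. The adjusted p was 0.338 with marker gates, 0.158 with stricter cell filters, 0.143 with called doublets kept and 0.203 in DESeq2's test. Without Smc3-cKO replicate 1 the change was -1.17, and without Smc3-cKO replicate 2 it was -1.63. Of 17 alternatives, some added after the data were seen, 3 passed.

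Kit differed between the 2 clusters that make up the cDC2-like class. One was led by Adam23, Adgrl3 and Dscam, the other by Cd209a, which encodes a C-type lectin. The Cd209a-led cluster met 8 cDC2 markers (a share of 0.615 of that list) but also 9 pDC markers (a share of 0.643). The Adam23-led cluster met 7 cDC2 markers (a share of 0.538), with 0 of them among its leading genes. The name cDC2-like is therefore loose for both. In the Adam23-led cluster Kit had 255 and 214 CPM in the Smc3-cKO libraries, against 244 and 244 CPM in the Smc3-WT libraries. In the Cd209a-led cluster it had 28.4 and 51.9 CPM in Smc3-cKO, against 17.2 and 56.5 CPM in Smc3-WT. The clusters did not overlap in Kit, and within each of them the genotypes overlapped. The Adam23-led cluster held 18.5% and 25.6% of cDC2-like cells in the Smc3-cKO libraries, against 86.4% and 71.2% in the Smc3-WT libraries. Tested on its own, after the data were seen, the Adam23-led cluster gave a log2 change of -0.11 ± 0.28 for Kit, and the Cd209a-led cluster gave -0.17 ± 0.57 (SE). The class therefore rests mostly on the Cd209a-led cluster in Smc3-cKO and mostly on the Adam23-led cluster in Smc3-WT, and numbers of cells in a cluster were not tested.

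**Figure D4:**
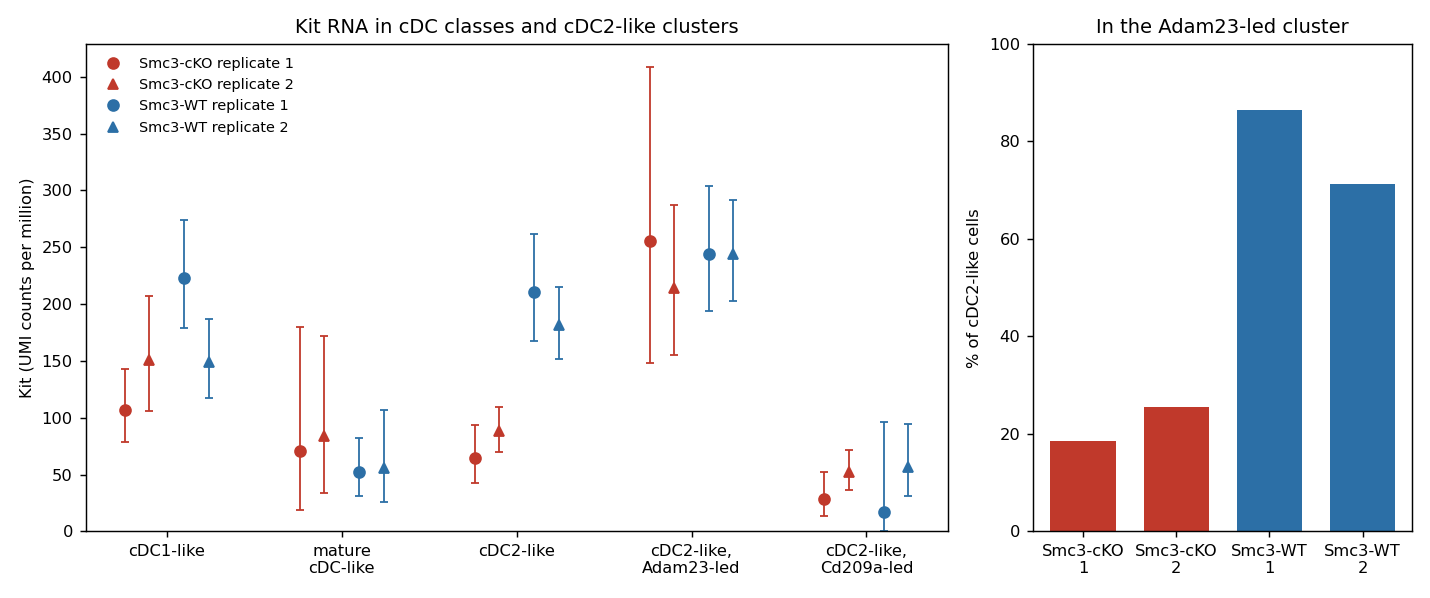
Kit in cDC classes and in the 2 cDC2-like clusters. Points are CPM per library with 95% exact Poisson intervals, and bars give the Adam23-led cluster as a percentage of cDC2-like cells. Kit is at 214 to 255 CPM in the Adam23-led cluster in all 4 libraries, which holds 18.5% and 25.6% of the class in Smc3-cKO and 86.4% and 71.2% in Smc3-WT.

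Summed markers of pDCs, classical monocytes, cDC1s, T cells, B cells and neutrophils each separated the genotypes in the same cDC2-like cells, but single markers did not all follow. The 14 pDC markers summed to 4128 and 4349 CPM in the Smc3-cKO libraries, against 1584 and 1506 CPM in the Smc3-WT libraries, led by Tcf4 and Runx2, with the pDC gene Klk1 at 0 in all 4. The pDC marker Ly6d went the other way, at 11.9 and 8.7 CPM in Smc3-cKO, against 82.1 and 16.2 CPM in Smc3-WT. The 11 classical monocyte markers summed to 3961 and 3427 CPM in Smc3-cKO, against 934 and 2643 CPM in Smc3-WT. Of these, Plac8 had 1446 and 1318 CPM in Smc3-cKO, against 228 and 1056 CPM in Smc3-WT. Genotypes overlapped in Fn1 (64.4 and 21.8 against 7.7 and 64.9 CPM) and Ms4a4c (189 and 108 against 208 and 164 CPM). The 12 cDC1 markers summed to 1102 and 1167 CPM in Smc3-cKO, against 2172 and 1946 CPM in Smc3-WT. The 10 erythroid markers followed the library rather than the genotype, at 742 and 2.2 CPM in Smc3-cKO, against 3075 and 52.7 CPM in Smc3-WT. The 11 T-cell markers summed to 47.7 and 68.6 CPM in Smc3-cKO, against 347 and 165 CPM in Smc3-WT. The 11 B-cell markers summed to 511 and 463 CPM in Smc3-cKO, against 870 and 527 CPM in Smc3-WT, and the 13 neutrophil markers to 23.9 and 57.7 CPM in Smc3-cKO, against 118 and 90.6 CPM in Smc3-WT. Kit itself was at 3.7 CPM or less in T-like and 2.1 CPM or less in B-like cells. The part of these lists in the Kit difference was not tested.

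The other 7 receptors in cDC2-like cells did not pass either. Il3ra had 26.2 and 27.2 CPM in the Smc3-cKO libraries, against 5.1 and 13.5 CPM in the Smc3-WT libraries, a log2 change of 1.33 ± 0.56 (adjusted p = 0.466 in edgeR's test). The groups did not overlap, but this rests on 48 UMIs. With called doublets kept the change was 0.56. Leaving out Smc3-WT replicate 1 gave 0.91, leaving out Smc3-WT replicate 2 gave 2.35, and it passed in none of these. Csf2ra had 83.5 and 70.7 CPM in Smc3-cKO, against 43.6 and 50.03 CPM in Smc3-WT, a change of 0.66 ± 0.34 (adjusted p = 0.594). Flt3 had 613 and 414 CPM in Smc3-cKO, against 547 and 430 CPM in Smc3-WT, and its change was 0.04 ± 0.35. Csf2rb2 had 40.6 and 42.4 CPM in Smc3-cKO, against 15.4 and 37.9 CPM in Smc3-WT, with no overlap and a change of 0.50 ± 0.47, or 0.07 without Smc3-WT replicate 1. Csf1r (0.32 ± 0.35), Csf3r (0.13 ± 0.47) and Csf2rb (-0.07 ± 0.31) changed by less than their errors, and their genotypes overlapped. The median over the 8 receptors was 0.23, against 0.02 over all genes tested in cDC2-like cells.

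In cDC1-like cells Kit had 107 and 151 CPM in the Smc3-cKO libraries, against 223 and 149 CPM in the Smc3-WT libraries, so the genotypes overlapped. Its change was -0.62 ± 0.36 with an adjusted p of 0.999 in edgeR's test. Flt3 in cDC1-like cells had 283 and 452 CPM in Smc3-cKO, against 556 and 399 CPM in Smc3-WT, a change of -0.47 ± 0.38. The change of Kit in cDC2-like minus that in cDC1-like cells was -0.82 ± 0.34, with an adjusted p of 0.556. Of all genes 0.392 percent were called there, 0.162 with a lower and 0.23 with a higher difference. Over all cDC-like cells Kit had 85.3 and 100 CPM in Smc3-cKO, against 165 and 155 CPM in Smc3-WT, a change of -0.88 ± 0.24 (adjusted p = 0.239).

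In pDC-like cells the beta chain Csf2rb2 had 89.3 and 94.3 CPM in the Smc3-cKO libraries, against 159 and 176 CPM in the Smc3-WT libraries. The genotypes did not overlap. The log2 change was -0.93 ± 0.30, with an adjusted p of 0.99998 in edgeR's test, and without Smc3-WT replicate 1 it was -1.003. Over 13 alternatives its change was negative each time, from -1.16 to -0.71, and its lowest adjusted p was 0.418. The neighbouring Csf2rb had 153 and 117 CPM in Smc3-cKO, against 141 and 171 CPM in Smc3-WT, and the genotypes overlapped. Flt3 had 274 and 269 CPM in Smc3-cKO, against 223 and 225 CPM in Smc3-WT, which did not overlap, but its change of 0.23 ± 0.27 was within its error. The 11 B-cell markers summed to 1387 and 1096 CPM in the same pDC-like cells in Smc3-cKO, against 3108 and 2112 CPM in Smc3-WT, and Csf2rb2 in B-like cells was at 0.6 CPM or less. The change of Csf2rb2 in cDC2-like minus that in pDC-like cells was 1.46 ± 0.47, with an adjusted p of 0.174, and without Smc3-WT replicate 1 it was 1.05 with an adjusted p of 0.714. Of all genes 0.82 percent were called there, 0.396 lower and 0.424 higher.

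**Figure D5:**
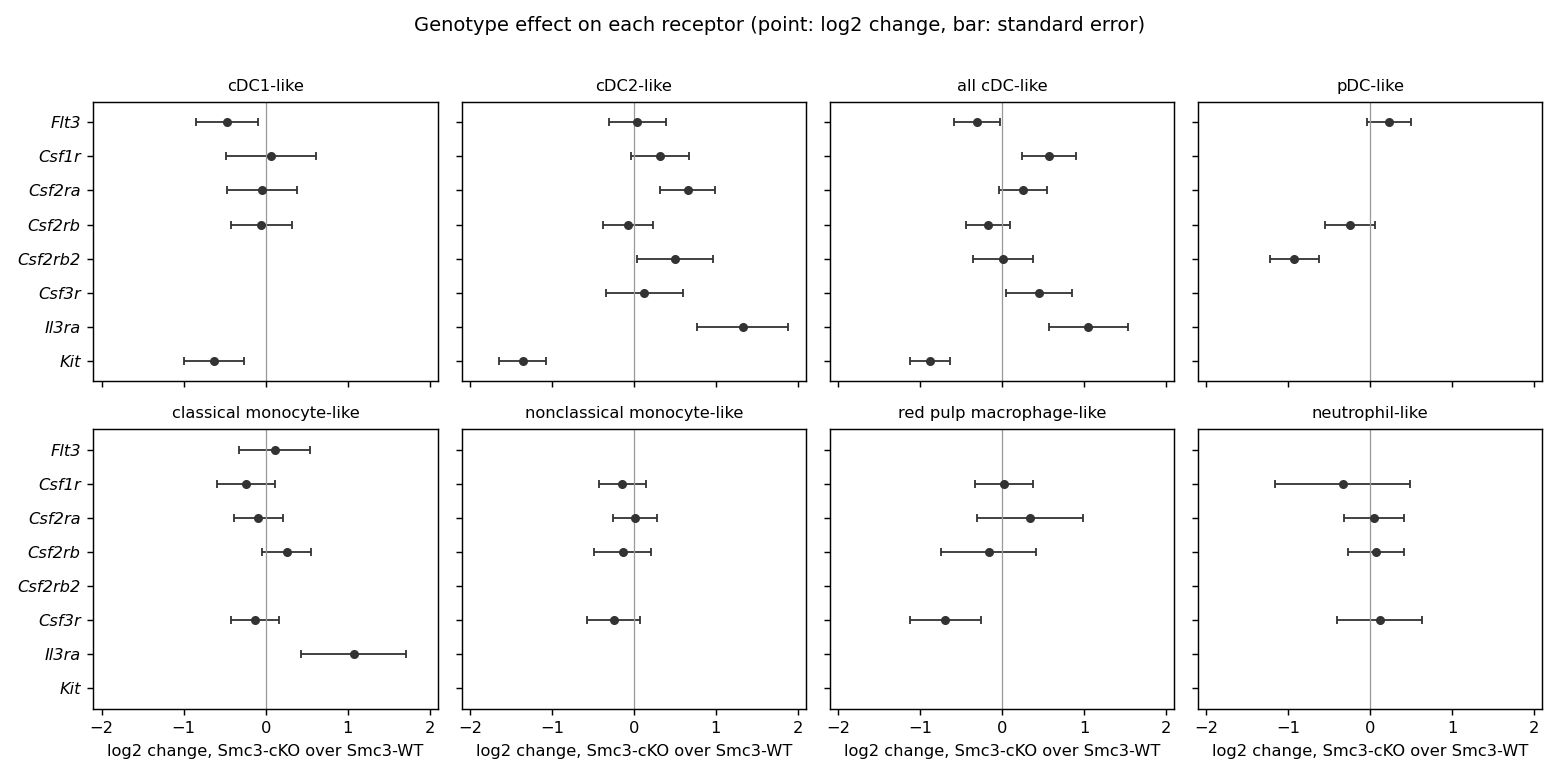
Log2 changes of the receptors, Smc3-cKO over Smc3-WT, in 8 tested classes. Points are edgeR estimates and bars are ± 1 SE. Kit in cDC2-like cells is the lowest at -1.36, Il3ra in cDC2-like cells is the highest at 1.33, and none passed the adjusted threshold.

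In monocyte-like, macrophage-like and neutrophil-like cells no receptor passed either. Csf1r had 487 and 407 CPM in classical monocyte-like cells in Smc3-cKO, against 637 and 450 CPM in Smc3-WT, and its change was -0.24 ± 0.35. Csf1r had 780 and 594 CPM in nonclassical monocyte-like cells in Smc3-cKO, against 772 and 731 CPM in Smc3-WT (-0.14 ± 0.29). In red pulp macrophage-like cells it had 1016 and 476 CPM in Smc3-cKO, against 829 and 656 CPM in Smc3-WT (0.03 ± 0.35). The genotypes overlapped in all 3. Of classical monocyte-like cells, the Fn1-led cluster held 95.1% and 61.1% in the Smc3-cKO libraries, against 1.79% and 51.4% in the Smc3-WT libraries. Il3ra in classical monocyte-like cells had 33.4 and 22.8 CPM in Smc3-cKO, against 5.8 and 17.6 CPM in Smc3-WT, which did not overlap (1.07 ± 0.64, adjusted p = 0.994 in edgeR's test). Without Smc3-WT replicate 1 that change was 0.67. Csf3r in neutrophil-like cells changed by 0.11 ± 0.52, and by 0.06 ± 0.38 in the S100a9-led and 0.35 ± 0.35 in the Ngp-led cluster alone. No receptor was called in cDC2-like minus classical monocyte-like cells either, where 0.0733 percent of all genes were called, 0.0367 lower and 0.0367 higher.

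Ligands, related receptors and signalling genes were described from lists chosen with earlier results known. Of 8 ligand genes none had counts enough for a test in any DC class. Kitl, stem cell factor, was tested in red pulp macrophage-like cells, at 101 and 119 CPM in Smc3-cKO, against 106 and 181 CPM in Smc3-WT. Csf1, which encodes M-CSF, was tested in neutrophil-like cells, at 34.9 and 67.4 CPM in Smc3-cKO, against 106 and 52.8 CPM in Smc3-WT. Flt3l, Flt3 ligand, averaged 6.4 CPM over the DC classes. Of 15 related receptors 9 were tested in cDC2-like cells, with 0 higher and 0 lower and a median change of -0.08. Among them the interferon gamma receptor chain Ifngr1 (-0.39 ± 0.30), the shared IL-6 family chain Il6st (-0.30 ± 0.30) and the IL-6 receptor Il6ra (-0.00 ± 0.34) changed by about their errors or less. Il6ra in cDC1-like cells had 338 and 264 CPM in Smc3-cKO, against 170 and 111 CPM in Smc3-WT (1.02 ± 0.35, adjusted p = 0.728). The leukaemia inhibitory factor receptor Lifr, named after its values were seen, had 248 and 234 CPM in cDC2-like cells in Smc3-cKO, against 103 and 66.3 CPM in Smc3-WT (1.51 ± 0.30, adjusted p = 0.0506).

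All 21 genes of receptor-proximal signalling were tested in cDC2-like cells, with 0 higher and 0 lower and a median change of -0.05. The kinase Jak2, which the beta chains use, had 420 and 530 CPM in Smc3-cKO, against 768 and 710 CPM in Smc3-WT, a change of -0.66 ± 0.34 (adjusted p = 0.600 in edgeR's test). The groups did not overlap. The Src family kinase Lyn (-0.03 ± 0.44) and the phosphatase Inpp5d (-0.19 ± 0.34) changed by less than their errors. Of 14 feedback inhibitors and STAT5 targets 5 were tested in cDC2-like cells and none passed, among them the inhibitor of E proteins Id2 (-0.16 ± 0.42) and the survival factor Mcl1 (0.32 ± 0.31). Socs2, a feedback inhibitor of JAK signalling and also a mature cDC marker, had 17.5 and 16.0 CPM in all cDC-like cells in Smc3-cKO, against 108 and 65.5 CPM in Smc3-WT. Its change was -2.45 ± 0.36 with an adjusted p of 0.0536, and mature cDC-like cells numbered 28 and 19 in the Smc3-cKO libraries, against 75 and 36 in the Smc3-WT libraries. Of 18 transcription factors that act on receptor genes 15 were tested in cDC2-like cells and none passed. Tcf4, the E protein of pDCs and one of the pDC markers above, had 1854 and 2216 CPM in Smc3-cKO, against 657 and 623 CPM in Smc3-WT (1.64 ± 0.43, adjusted p = 0.139). Irf8 (0.83 ± 0.32, adjusted p = 0.382), a factor of DC and monocyte development, and Bcl11a (0.03 ± 0.42), which acts in pDC and lymphoid development, did not pass.

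Each receptor was compared with 7800 genes by Pearson's r of log2(CPM + 5) over 15 classes, as a description, since classes share libraries and depth. Flt3 was most like Ccnd1 (r = 0.90), Scn3a (0.89) and Gria3 (0.88). Csf1r was most like Lrp1, Clec4a1 and Tmem106a, all at 0.95. Kit was most like Zbtb46 (0.86), a transcription factor that marks cDCs, Ptpn3 (0.83) and Tspan33 (0.80). Csf2ra was most like 2010013B24Rik (0.96), Il13ra1 (0.96) and Tlr13 (0.95), and Csf3r most like Pla2g7 (0.92), Dram1 (0.91) and Lilra6 (0.90). Csf2rb followed Atp6v0b (0.89), Gabarap (0.86) and Scamp2 (0.86), Csf2rb2 followed Zfp521 (0.88), Abhd15 (0.87) and Tmem59 (0.85), and Il3ra followed Acot11 (0.88), Rab1a (0.86) and Mcrip1 (0.86). Among the receptors themselves the closest pair was Csf2rb with Csf2rb2 at 0.81, followed by Csf1r with Csf2ra at 0.71.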

How the data were processed

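The 4 libraries were made with a Chromium 3′ kit, per the labels' protocols, with 10000 cells targeted. The deposited values are raw UMI counts per gene and barcode, made by the authors with Cell Ranger 7.0.0 per the file headers; the build was mm10 per the submitters' processing notes. Filters required 200 genes per cell and no more than 10% mitochondrial UMIs, and Scrublet (scanpy 1.11.5) doublets were removed. Cells were clustered (2000 variable genes without the 8 receptors, 30 components, 15 neighbours, Leiden resolution 1), myeloid cells again with 20 components, and named from marker lists. Counts were summed per library and class. Classes with at least 20 cells in every library (10 for a single cluster) were tested with edgeR 4.0.16 (R 4.3.3; filterByExpr, TMM, glmQLFit, glmQLFTest), with Benjamini-Hochberg adjustment over all genes and a threshold of 0.05; the difference between classes came from the interaction term of class and genotype, with libraries as blocks. The scripts were tested on simulated data. Median depth was 2728 to 3844.5 UMIs per barcode, and Poisson and Clopper-Pearson 95% intervals cover counting error only. Named genes were the 8 receptors, the 3 genes most like each, and of each pathway list those past the threshold and the 3 with the highest mean CPM over DC classes; Lifr was added after its values were seen. The receptors and lists were chosen with earlier results of these data known. Alternatives covered DESeq2 1.42.0, RLE factors, no low-count filter, replicate blocks, left-out libraries, other cell filters, doublets kept, resolution 2, equal cells, marker gates, cells thinned to 1000 UMIs and single clusters. Mature cDC-like and basophil-like cells had too few cells for the main test. With marker gates mature cDC had 24 and 22 cells in the Smc3-cKO libraries, against 78 and 39 in the Smc3-WT libraries, and was fitted. Csf1r was left out of the search for RefSeq start regions. Start regions were found for 6 of the other receptors and used for the 3 whose window lies outside the gene. Kit had 2 entries there, and the first was used.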

Additional observations from a re-analysis of the deposited data

How the results depend on the processing

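Of the 42 genotype effects 0 passed under DESeq2 and RLE factors. Other settings tested a different set of effects, and marker gates added mature cDC to the classes fitted. There 0 passed of 37 with marker gates, 29 under stricter filters, 38 with doublets kept and 40 at resolution 2. The count became 1 of 64 without a low-count filter and 1 of 35 with equal numbers of cells, in both cases Kit in cDC2-like cells (-1.31, adjusted p = 0.00849, and -1.74, adjusted p = 0.0111, edgeR). Leaving out each library in turn gave 0 to 1, the 1 being Kit without Smc3-WT replicate 2. Over these and the settings added after seeing the data, the change of Kit in cDC2-like cells ran from -1.74 to -0.11 and its adjusted p from 0.00849 to 0.99972. With cells of unnamed clusters near cDC2 put into the class, Kit changed by -0.78 (adjusted p = 0.181). With the replicate number as a block, 0 of 42 passed (Kit in cDC2-like cells adjusted p = 0.0735, edgeR). Over all genes that block called 411 in all cDC-like, 98 in cDC1-like and 83 in cDC2-like cells, against 16, 5 and 61 without it. It called 27 in red pulp macrophage-like and 12 in pDC-like cells, against 3 and 0, and 0 in monocyte-like and neutrophil-like cells. Replicate 1 minus replicate 2 in Smc3-cKO correlated over genes with the same difference in Smc3-WT at -0.11 to 0.35 by class. A shared replicate effect was not tested, and the pairing is not established. With the numbers crossed, also 0 of 42 passed, with 32, 3 and 30 genes called in all cDC-like, cDC1-like and cDC2-like cells. Csf3r in neutrophil-like cells reversed to -0.39 without Smc3-WT replicate 2 and to -0.13 without Smc3-cKO replicate 2, in a range of -0.39 to 0.95 over the 4 left-out libraries. Of the 42 effects 28 changed sign under at least 1 alternative, none larger than 0.69 in size. The 22 comparisons between classes gave 0, with RLE factors and without any 1 library too. The class with the highest level stayed first for 5 of 8 receptors with marker gates and for 5 of 8 with thinned cells, and for 7 of 8 without any 1 library; the exchanges were between overlapping neighbours. Some classes could not be fitted for lack of cells: cDC1-like with gates, doublets kept or resolution 2, and pDC-like, classical monocyte-like and macrophage-like under stricter filters. Csf2rb2 and Il3ra had the fewest UMIs, 517 and 702 over all cells.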

Other observations

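Lymphoid cells held part of the receptor RNA. B-like cells, 55.6% of all cells, held 36.2% of the UMIs of the shared beta chain Csf2rb and 30.9% of those of Csf2ra, at low levels per cell: Csf2ra had 9.4 and 9.1 CPM in the Smc3-cKO libraries, against 5.9 and 6.1 CPM in the Smc3-WT libraries. Kit had 39.6 and 96.5 CPM in NK-like and innate lymphoid-like cells in Smc3-cKO, against 37.6 and 26.4 CPM in Smc3-WT. Erythroid-like cells held 45.9% of all 2192 Kit UMIs, while the cDC1-like and cDC2-like cells held 11.3% and 14.8%. These classes were not tested by genotype here.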
